A study of Mus musculus with 9 samples.

Results

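Sorted basal cells of the plantar epidermis from aged mice were compared with those from mice on a high-fat diet (HFD), in bulk RNA-seq. The comparison rests on 6 of the 9 libraries of the series, 3 aged and 3 HFD, and on the 10367 of 22399 listed genes whose mean over all 9 libraries was at least 1 FPKM (fragments per kilobase of gene, scaled to the library's fragments). All groups were wild-type C57BL/6 mice. Per the labels, the aged group was 24 months old, with no diet stated, and the HFD group was 5 months old. Age and diet therefore cannot be told apart in any difference below. The third group, control, was 5 months old and on a normal diet, and its values are given only as a reference level. In every group the skin was digested with trypsin at 37 °C for an hour, and cells positive for CD49f and negative for CD34 were sorted. Whether the 3 replicates of a group came from separate animals is not stated, so the spread behind each p-value is that of these libraries and may be technical only.

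Basal keratinocytes sit on the basement membrane, held there by hemidesmosomes that contain integrin alpha 6 (CD49f), and their divisions renew the layers above. Dividing cells raise the transcripts of the mitotic spindle and kinetochore in the G2 and M phases, and those of the replication machinery in S phase. Immediate early genes, among them the Fos and Jun subunits of the AP-1 transcription factor, are transcribed within minutes of growth factor or stress signals and need no new protein. Tenascin C and periostin rise in wounds. Stress keratins rise in activated epidermis, and Krt6a is also a keratin of palmoplantar epidermis, the site sampled here. The SREBP factors drive the enzymes that make fatty acids and sterols.

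Depth, recovered from the steps between low FPKM values, was 26.4 to 35.8 M reads in the HFD libraries and 30.1 to 33.0 M in the aged ones. Basal identity was in place in all 6 libraries: Krt14, the main basal keratin, was at 13025, 13796 and 14788 FPKM in HFD and 11532, 11215 and 11384 FPKM in aged. CD34, the surface protein used to exclude hair follicle stem cells, had at most 0.0671 FPKM. Itga6, which encodes CD49f, was at 160.2, 163 and 167 FPKM in HFD and 129.8, 127 and 114 FPKM in aged, and it fell in aged (log2 change -0.40 ± 0.07, the error being a standard error here and below; limma with Benjamini-Hochberg adjustment, adjusted p = 0.0057). The sort used its product, so this gene is not independent of how the cells were chosen. Krt5, Krt15 and Trp63, which also mark basal cells, had log2 differences of -0.26, 0.22 and -0.17 and did not pass the test.

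Across the table, 828 genes passed the test at an adjusted p under 0.05 (called), which is 7.99% of those tested. Of these, 367 were higher in aged (3.54%) and 461 were lower (4.45%). The list counts below are to be read against these shares. The aged and HFD libraries did not overlap for 364 of the 367 genes called higher and 460 of the 461 called lower. A lack of overlap in a called gene therefore adds little to its call. The median log2 difference over all genes tested was -0.00. Most differences were small: 32 genes rose and 12 fell by at least 1 on the log2 scale. Of the 828, 266 kept the call under every alternative setting in which they were tested, 99 of them higher and 167 lower, and these are called steady below. All 21 settings tested 217 of the 266, and the other 49, with a mean under 5 FPKM, were tested in 20. Because each library is a bulk measurement, fewer cells of a type and less RNA per cell cannot be told apart. Median GC content was 54.1% in genes called higher, 47.6% in those called lower and 49.8% in all genes tested. After a correction for GC content, 847 genes were called, 691 of them among the 828.

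**Figure D1:**
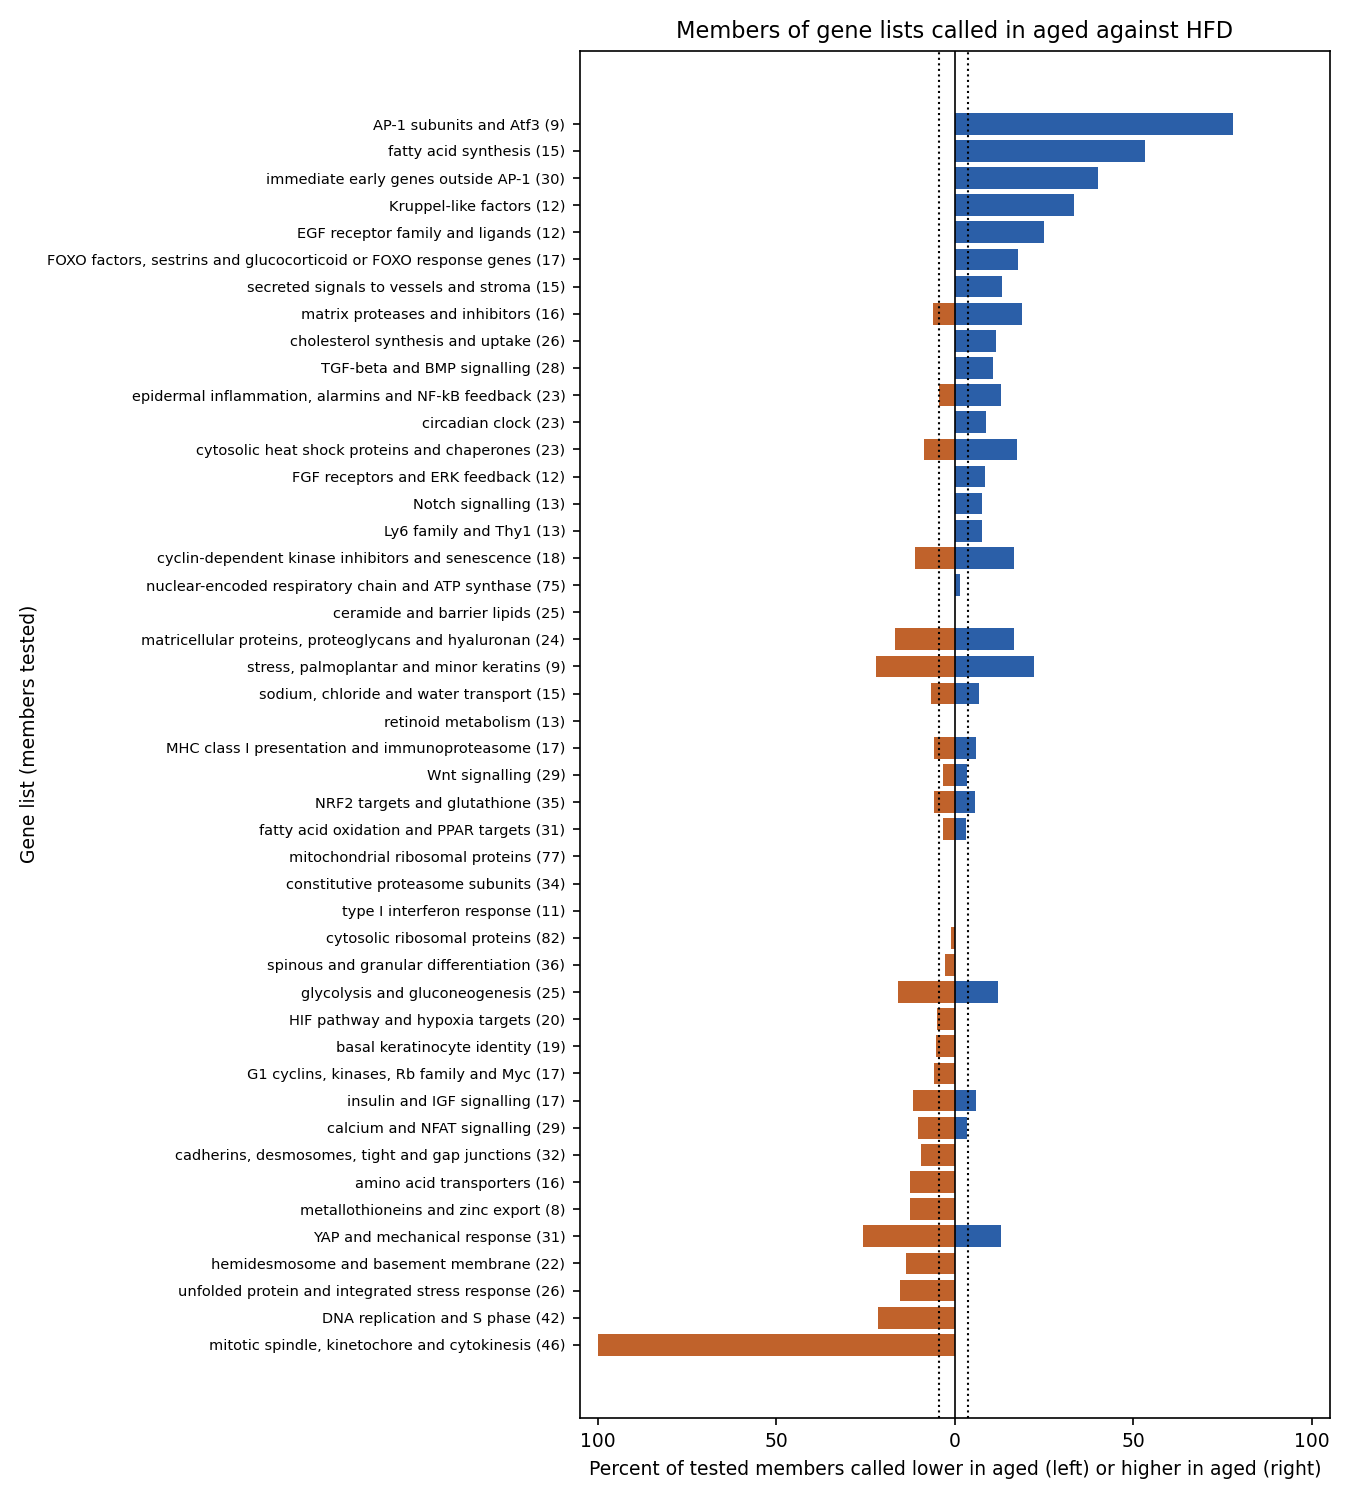
Percent of the tested members of each gene list that were called higher (blue, to the right) or lower (orange, to the left) in aged against HFD, with the number of members tested in brackets. Dotted lines mark the share over all genes, 3.54% higher and 4.45% lower. AP-1 stands at the top with 7 of 9 members called higher, and the mitosis list at the bottom with 46 of 46 called lower.

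Immediate early genes were higher in aged cells, as measured after digestion and sorting. The skin of every group was digested with trypsin first, and such genes respond to stress within minutes. Whether induction during preparation had a part in levels, or in the difference between groups, was not tested. This holds for AP-1, for the other immediate early genes and for all genes named below. Among AP-1 subunits and Atf3, 7 of 9 tested members rose and none fell, with a median log2 difference of 1.12. Fosb, a Fos-family subunit, was at 26.1, 16.8 and 23.1 FPKM in HFD and 60.9, 61.7 and 68.2 FPKM in aged (log2 change 1.51 ± 0.19, adjusted p = 0.0018). Atf3, a stress-induced bZIP factor that pairs with Jun, was at 75.2, 37.8 and 70.2 FPKM in HFD and 161, 179 and 198 FPKM in aged (log2 change 1.59 ± 0.24, adjusted p = 0.0035). The lowest aged library was above the highest HFD library for both, by more than the spread within either group. Fos was the most abundant member, at 218, 166 and 304 FPKM in HFD and 422, 453 and 521 FPKM in aged, a log2 change of 1.06 ± 0.19 (adjusted p = 0.0077). Jun rose by 1.22 ± 0.19 and Junb by 1.12 ± 0.15, with adjusted p of 0.0037 and 0.0023. Fosl1 rose by 1.19 and Jund by 1.03, and both calls were lost when the filter on low values was dropped (adjusted p = 0.054 and 0.062). Jund was at 185, 158 and 318 FPKM in aged, with replicate 3 well above the others. The other members, Fosl2 and Maff, had log2 differences of 0.34 and 0.47 and were not called, although their groups did not overlap. Over the whole list the groups did not overlap for 9 of 9 members, against 29.8% of all genes tested.

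Outside AP-1, 12 of 30 tested immediate early genes rose and none fell, and the list's median log2 difference was 0.43. Arc, first known as an activity-regulated gene of neurons, was at 7.67, 6.98 and 7.07 FPKM in HFD and 28.7, 35.4 and 45.8 FPKM in aged, a log2 change of 2.17 ± 0.34 (adjusted p = 0.0039). The 3 HFD libraries lay close together and the 3 aged ones were more spread, with no overlap. Btg2, an antiproliferative cofactor of mRNA deadenylation, was at 32.9, 17.9 and 21 FPKM in HFD and 67.2, 84 and 73 FPKM in aged (log2 change 1.64 ± 0.27, adjusted p = 0.0047). Egr1, a zinc finger factor, was at 60, 48.3 and 64.7 FPKM in HFD and 149, 124 and 173 FPKM in aged (log2 change 1.35 ± 0.14, adjusted p = 0.0017). Zfp36 encodes tristetraprolin, which binds AU-rich elements and destabilises mRNAs of cytokines and other early genes, and it rose by 1.34 ± 0.16 (adjusted p = 0.0017). Nr4a1, an orphan nuclear receptor, rose by 1.5 ± 0.25, Ier2 by 1.08 ± 0.15 and the nuclear factor Csrnp1 by 0.99 ± 0.19. These 7 genes were steady. Egr2, Egr3, Dusp1 (a phosphatase that switches off MAP kinases), Socs3 (a brake on cytokine receptors) and Ppp1r15a (which directs dephosphorylation of eIF2 alpha) also rose, by 0.73, 0.99, 0.83, 0.76 and 0.70. Each of those 5 calls was lost without the filter on low values. Leaving out a library also ended them: Dusp1 without HFD replicates 1 or 2 or aged replicates 2 or 3 (adjusted p from 0.054 to 0.076), Socs3 without the same libraries (0.062 to 0.077), Egr2 without HFD replicate 3 (0.065) or aged replicate 1 (0.061), Egr3 without HFD replicate 3 (0.061) and Ppp1r15a without HFD replicate 2 (0.051).

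In control cells, given as a reference, Fosb was at 19.4, 30.3 and 17.5 FPKM, Egr1 at 55.7, 73.9 and 58 FPKM and Zfp36 at 32.9, 47.4 and 35.5 FPKM, so control overlapped HFD for Fosb, Egr1 and Zfp36. Jund was at 159, 169.9 and 200.3 FPKM in control, above all 3 HFD libraries and overlapping the aged ones. Junb overlaps Prdx2 and Jun overlaps Junos on the opposite strand, and the sources used here do not say that counting used strand, so their values are less certain than that of Fosb.

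**Figure D2:**
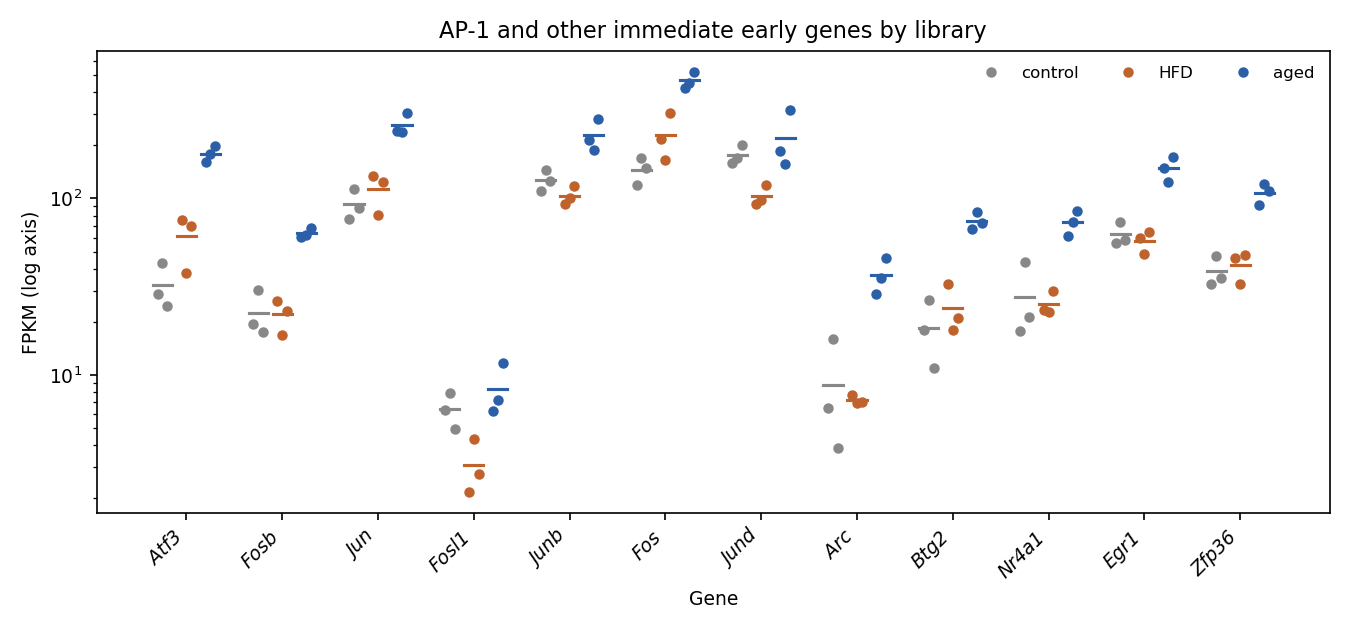
FPKM (log axis) of 7 genes of the AP-1 list and 5 other immediate early genes in each of the 9 libraries, with a bar at each group's mean (n = 3). All 12 genes were called, and for each the 3 aged libraries lie above the 3 HFD libraries, as in 364 of the 367 genes called higher.

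Promoters of the called immediate early genes outside AP-1 are shown because some carry the binding letters of factors known to act on such genes. The windows come from RefSeq on build GRCm38.p6 and run from 250 bases before each gene's start to 50 after it. Both strands were searched for TGACGTCA (the cyclic AMP response element, CRE) and for the CArG box bound by serum response factor. RefSeq windows were matched for 8 of the 12 called genes, and not for Arc, Egr1, Egr3 or Ier2. The CRE was in 3 of the 8 (37.5%), in Btg2, Dusp1 and Ppp1r15a, against 1.88% of all 27025 promoters and 3.47% of those of the genes tested. It was in none of the 15 matched promoters of list members that were not called. Of the 3 genes that carry it, only Btg2 had a steady call, so this split depends on the setting. The CArG box was in 1 of the 8, in Zfp36, in 1 of the 15 that were not called and in 1.57% of all promoters. None of the 6 matched promoters of called AP-1 genes held the CRE, the AP-1 site TGANTCA or the CArG box within this window. A match is a description of the letters and says nothing of binding. The 250 bases before the start of 3 of these genes follow, with the CRE (Btg2, Dusp1) or the CArG box (Zfp36) in capitals. The bases just after the RefSeq start of Btg2 are in no GENCODE M21 transcript of the gene, so its start is less certain.
Btg2, chr1:134079156-134079405, minus strand: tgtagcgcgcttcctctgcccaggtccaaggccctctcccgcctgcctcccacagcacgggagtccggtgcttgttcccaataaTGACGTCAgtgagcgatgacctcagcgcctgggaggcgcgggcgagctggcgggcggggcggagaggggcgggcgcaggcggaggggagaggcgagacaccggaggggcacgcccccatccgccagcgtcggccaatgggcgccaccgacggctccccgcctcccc
Dusp1, chr17:26508473-26508722, minus strand: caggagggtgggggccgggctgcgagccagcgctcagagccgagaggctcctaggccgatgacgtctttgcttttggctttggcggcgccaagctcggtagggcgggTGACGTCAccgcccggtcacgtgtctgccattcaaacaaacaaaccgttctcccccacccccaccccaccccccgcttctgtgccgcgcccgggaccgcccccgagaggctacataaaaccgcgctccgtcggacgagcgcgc
Zfp36, chr7:28379229-28379478, minus strand: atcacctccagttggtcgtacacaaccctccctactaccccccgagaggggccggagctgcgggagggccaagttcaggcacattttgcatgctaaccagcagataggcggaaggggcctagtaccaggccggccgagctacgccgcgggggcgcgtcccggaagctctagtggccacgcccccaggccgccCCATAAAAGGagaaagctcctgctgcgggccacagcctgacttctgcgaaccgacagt

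Genes of mitosis were lower in aged than in HFD cells. All 46 tested members of the list of mitotic spindle, kinetochore and cytokinesis genes fell, with a median log2 difference of -0.73, and 43 of the 46 calls were steady. The 2 groups did not overlap for 46 of 46 members, against 15.9% of all genes tested that lay apart in this direction. This nearly follows from the calls, since 460 of the 461 genes called lower did not overlap. Mki67, the chromosome surfactant used as a marker of cycling cells (chr7:135689784-135716361, GRCm38), was at 161, 157 and 146 FPKM in HFD and 75.1, 92.8 and 97.2 FPKM in aged (log2 change -0.81 ± 0.11, adjusted p = 0.0022). Every aged library was below every HFD library by more than the range within HFD. Hmmr, a spindle and hyaluronan-binding protein, was at 30.5, 30 and 29.6 FPKM in HFD and 12.1, 14.7 and 16.9 FPKM in aged (log2 change -1.01 ± 0.10, adjusted p = 0.0012). Knl1, the kinetochore scaffold that recruits checkpoint proteins, was at 11.9, 13.4 and 14 FPKM in HFD and 5.2, 5.64 and 6.76 FPKM in aged (log2 change -1.04 ± 0.11, adjusted p = 0.0012). The HFD libraries were nearly equal for Hmmr, and the aged ones were all well below them.

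Among motors, the log2 change was -0.97 ± 0.11 for Kif20b, -0.97 ± 0.14 for Kif2c and -0.79 ± 0.09 for the chromokinesin Kif4. Among regulators it was -0.87 ± 0.14 for Plk1, the polo kinase of mitotic entry, -0.57 ± 0.08 for Cdk1 and -0.96 ± 0.13 for its partner cyclin B1 (Ccnb1). Structural members fell as well: the log2 change was -0.97 ± 0.13 for the kinetochore motor Cenpe, -1.01 ± 0.13 for the spindle pole protein Aspm and -0.63 ± 0.07 for the condensin subunit Smc4. For Top2a, which untangles sister chromatids, it was -0.71 ± 0.10, and for Ube2c, the ubiquitin-conjugating enzyme of the anaphase-promoting complex, -0.72 ± 0.13. Cdc20, an activator of the same complex, had a log2 change of -0.81 ± 0.16, and its call was lost without the filter on low values (adjusted p = 0.053). Outside the list, Cip2a, an inhibitor of the phosphatase PP2A, was at 20.3, 19.5 and 22.2 FPKM in HFD and 10.1, 10.4 and 11.4 FPKM in aged (log2 change -0.89 ± 0.08, adjusted p = 0.00062), which was the lowest p among genes that fell. Depdc1a and the nuclear import receptor Kpna2 also fell, with log2 changes of -1.18 ± 0.13 and -0.87 ± 0.10. Of their transcripts, 62.6% and 92.4% of 50-base stretches also occur in other annotated genes, so their counts, and that of Ccnb1 (42.1%), depend on how such reads were assigned.

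DNA replication genes moved less. Of 42 tested members 9 fell and none rose, with a median log2 difference of -0.19, and 39 of the 42 had a difference below 0. Pcna, the sliding clamp of DNA polymerases, was at 72.7, 71.1 and 72.5 FPKM in HFD and 42.2, 53.6 and 51.8 FPKM in aged (log2 change -0.55 ± 0.09, adjusted p = 0.004), and it was the only steady call of the list. Pcna shares 31.8% of its 50-base stretches with other annotated genes, so its level is less certain. The log2 change was -0.44 ± 0.09 for the flap nuclease Fen1, -0.39 ± 0.08 for the ribonucleotide reductase subunit Rrm1 and -0.42 ± 0.10 for the helicase subunit Mcm3. Without HFD replicate 2 Fen1 lost its call (adjusted p = 0.054), and Rrm1 and Mcm3 were not called without HFD replicates 2 or 3 or aged replicates 1 or 2 (adjusted p from 0.052 to 0.091). The list's count depended on single libraries, being 1 without HFD replicate 2, 2 without HFD replicate 3, 2 without aged replicate 1 and 3 without aged replicate 2. Whether the mitosis and replication lists differ was not tested.

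Control libraries lay closer to aged than to HFD for mitosis and not for replication. The median deviation of the 46 mitosis genes from their 9-library mean, on the log2(FPKM + 1) scale, was 0.43, 0.48 and 0.41 in the HFD libraries, -0.48, -0.27 and -0.14 in the aged ones and -0.25, -0.23 and -0.02 in control. For the 42 replication genes it was 0.02, 0.09 and 0.06 in HFD, -0.23, -0.20 and -0.07 in aged and 0.03, -0.00 and 0.22 in control. Aged replicate 1 had the lowest value in both lists.

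**Figure D3:**
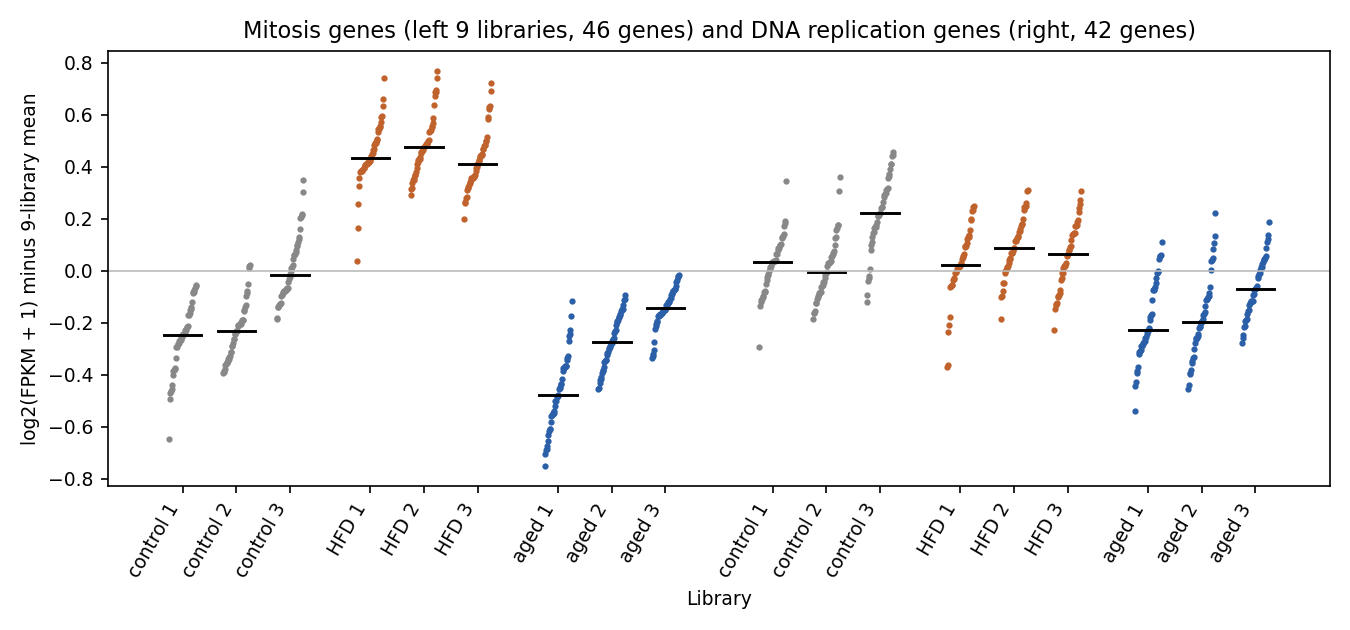
Deviation of each gene from its 9-library mean, in log2(FPKM + 1), for 46 mitosis genes (left 9 columns) and 42 DNA replication genes (right 9 columns), with genes in rising order within a library and a bar at the median. The HFD medians for mitosis are 0.41 to 0.48 and the aged medians are -0.48 to -0.14, while the replication medians of the 2 groups are closer.

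Promoters of mitosis genes are shown because many share CCAAT, the letters bound by NF-Y. The motif was counted on both strands, as CCAAT or ATTGG, in the same 300-base windows. It was in 32 of the 41 matched promoters of the list (78.0%), against 37.9% of all promoters, 39.1% of those of the genes tested and 53.1% of those of all genes called lower. Among genes called higher in aged the share was 40.6%. It was as high in some genes that were not called, being 12 of 15 (80%) for the immediate early genes outside AP-1 and 12 of 16 (75%) for clock genes. Top2a and Ube2c had 6 matches each and Hmmr had 5, while Knl1, Kif2c and Nuf2 had none. The 250 bases before the start of Ccnb1, Hmmr and Top2a follow, with CCAAT or ATTGG in capitals. The spacing differs: the matches begin 99 and 67 bases before the start in Ccnb1, and between 172 and 20 bases before it in Hmmr. The bases just after the RefSeq start of Hmmr are in no GENCODE M21 transcript of the gene, so its distances are less certain.
Ccnb1, chr13:100786487-100786736, minus strand: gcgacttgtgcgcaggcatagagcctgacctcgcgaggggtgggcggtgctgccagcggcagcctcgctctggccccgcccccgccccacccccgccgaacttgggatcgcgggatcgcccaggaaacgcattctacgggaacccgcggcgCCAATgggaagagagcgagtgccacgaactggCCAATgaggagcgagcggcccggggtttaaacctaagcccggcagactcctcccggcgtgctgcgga
Hmmr, chr11:40733438-40733687, minus strand: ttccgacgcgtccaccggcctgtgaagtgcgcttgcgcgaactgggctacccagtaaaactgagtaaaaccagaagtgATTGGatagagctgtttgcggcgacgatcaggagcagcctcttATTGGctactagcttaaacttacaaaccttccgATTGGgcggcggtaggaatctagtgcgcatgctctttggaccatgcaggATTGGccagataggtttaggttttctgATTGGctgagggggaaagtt
Top2a, chr11:99024190-99024439, minus strand: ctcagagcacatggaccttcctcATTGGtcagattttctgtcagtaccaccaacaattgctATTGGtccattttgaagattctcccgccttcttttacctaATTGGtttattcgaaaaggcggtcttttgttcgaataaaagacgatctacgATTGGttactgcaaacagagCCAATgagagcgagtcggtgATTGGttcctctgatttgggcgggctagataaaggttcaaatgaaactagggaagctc

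Of 17 G1 cyclins, kinases, Rb-family and Myc-family genes, 1 fell and none rose (5.9% called, against 7.99% of all genes tested). Rbl1, the pocket protein p107, went from 24.5, 26 and 23.3 FPKM in HFD to 16.3, 17.4 and 19.7 FPKM in aged (log2 change -0.45 ± 0.08, adjusted p = 0.0091). Among 18 tested inhibitors and senescence genes, 3 rose and 2 fell. The 3 became 1 without HFD replicates 1 or 3, aged replicates 2 or 3 or control replicates 1 or 2, and the 2 became 0 when any 1 HFD library or aged replicate 1 was left out, and 1 without aged replicate 2 or control replicate 2. Cdkn2a, which encodes p16 and p19Arf, was at 1.85, 1.67 and 1.16 FPKM in HFD and 3.06, 3.3 and 3.87 FPKM in aged, against 0.00 to 0.212 FPKM in control (log2 change 0.79 ± 0.14, adjusted p = 0.0069). All HFD and aged libraries were above the control range, and the aged ones were higher than the HFD ones. With a pseudocount of 0.1 in place of 1 the call was lost (adjusted p = 0.11). Lmnb1, the nuclear lamin that declines in senescent cells, fell (log2 change -0.55 ± 0.13, adjusted p = 0.027), a call lost when any HFD library, aged replicate 1 or aged replicate 2 was left out (adjusted p from 0.065 to 0.095). The proapoptotic BH3-only gene Pmaip1 (Noxa), which is outside these lists, was at 1.11, 0.608 and 1.03 FPKM in HFD and 2.96, 2.76 and 2.72 FPKM in aged (log2 change 1.0 ± 0.14, adjusted p = 0.0024).

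Pcbd1 had the lowest p of the whole comparison. It encodes the dehydratase that recycles the tetrahydrobiopterin cofactor and also serves as the dimerisation cofactor of HNF1 (chr10:61089331-61094324, GRCm38). Its level was 8.16, 8.31 and 5.59 FPKM in HFD and 24.7, 26.1 and 24.7 FPKM in aged, a log2 change of 1.66 ± 0.12 (adjusted p = 0.00025). The 3 aged libraries were nearly equal and each was far above the highest HFD library. Baiap2l1, an I-BAR protein that couples membrane curvature to actin, was at 53.6, 52.8 and 44.2 FPKM in HFD and 120.4, 125 and 167 FPKM in aged (log2 change 1.42 ± 0.13, adjusted p = 0.00062). Its annotated span overlaps Bri3 on the opposite strand. Depp1, a FOXO target induced by fasting (chr6:116650609-116652794), was at 10.4, 4.95 and 3.19 FPKM in HFD and 28.2, 36.7 and 43.5 FPKM in aged, with 5.12, 10.8 and 3.04 FPKM in control. It rose by 2.48 ± 0.38 (adjusted p = 0.0037), and all 3 aged libraries were above all 6 others. Gsta3, a glutathione S-transferase, rose by 1.12 ± 0.13 and the lysosomal cathepsin Ctsh by 0.75 ± 0.08 (adjusted p = 0.0017 and 0.0017). Cyp2b10, a cytochrome P450, was at 2.32, 2.17 and 1.83 FPKM in HFD and 6.27, 4.95 and 7.26 FPKM in aged (log2 change 1.19 ± 0.15, adjusted p = 0.0019). Gpha2, a glycoprotein hormone subunit, was at 1.48, 1.08 and 0.624 FPKM in control, 6.1, 3.93 and 3.67 FPKM in HFD and 12.8, 9.97 and 13.3 FPKM in aged (log2 change 1.24 ± 0.18, adjusted p = 0.0032), so the 3 groups did not overlap. Gpha2 overlaps Ppp2r5b, and how reads in the overlap were counted is not stated, so its level is less certain.

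Lipid synthesis genes were higher in aged cells. Of 15 tested fatty acid synthesis genes 8 rose and none fell, with a median log2 difference of 0.39. Srebf1, which encodes the SREBP-1 factor, was at 33.7, 35.1 and 39.4 FPKM in HFD and 56.3, 48.2 and 58.8 FPKM in aged (log2 change 0.58 ± 0.11, adjusted p = 0.0097). Slc25a1, the mitochondrial citrate carrier that supplies carbon for cytosolic acetyl-CoA, was at 17.3, 21.2 and 17.4 FPKM in HFD and 24.7, 25.8 and 29.1 FPKM in aged (log2 change 0.49 ± 0.09, adjusted p = 0.0087). Me1, malic enzyme, a source of NADPH, was at 3.57, 4.14 and 3.27 FPKM in HFD and 7.01, 5.82 and 6.7 FPKM in aged (log2 change 0.69 ± 0.10, adjusted p = 0.0031). Me1 shares 26.5% of its 50-base stretches with other genes, so its level is less certain. For these 3 steady genes the groups did not overlap, and control was at 55.2 ± 7.6, 31 ± 0.997 and 5.42 ± 0.51 FPKM (mean ± SD, n = 3), nearer to aged than to HFD. The elongase Elovl6 rose by 0.90, the desaturases Scd1 and Scd2 by 0.71 and 0.39, and the acyltransferases Gpam and Dgat2 by 0.43 and 0.49. Leaving out a library ended these 5 calls: Scd1 without HFD replicates 2 or 3, Scd2 without these or aged replicate 2, Elovl6 without these or aged replicates 1 or 3, Gpam without HFD replicates 1 or 3 or aged replicates 2 or 3, and Dgat2 without HFD replicates 1 or 3 or aged replicates 1 or 3. Their adjusted p then lay between 0.051 and 0.11. The count of 8 became 5 without HFD replicate 2, 3 without HFD replicate 3, 5 without aged replicate 3 and 3 without the filter on low values. Fasn, the fatty acid synthase itself, had a log2 difference of 0.27 (adjusted p = 0.11) and Acly, the citrate lyase, 0.13 (adjusted p = 0.33), so neither was called.

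In the sterol branch, 3 of 26 tested genes rose, Srebf2 and Hsd17b7 among them, and none fell, with a median of 0.23 and 23 of the 26 above 0. That is 11.5% called, against 7.99% of all genes tested. Srebf2, the sterol-sensing SREBP, was at 23.4, 25.5 and 22.7 FPKM in HFD and 29.3, 32.4 and 35 FPKM in aged (log2 change 0.42 ± 0.08, adjusted p = 0.0089). Control was at 37.4 ± 0.158 FPKM, so HFD had the lowest mean of the 3 groups for this gene. None of the 25 tested genes of ceramide and barrier lipids was called (median 0.08), and fatty acid oxidation genes were near the background, with 1 of 31 genes higher (Acot2) and 1 lower (Ucp2), neither of them steady.

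**Figure D4:**
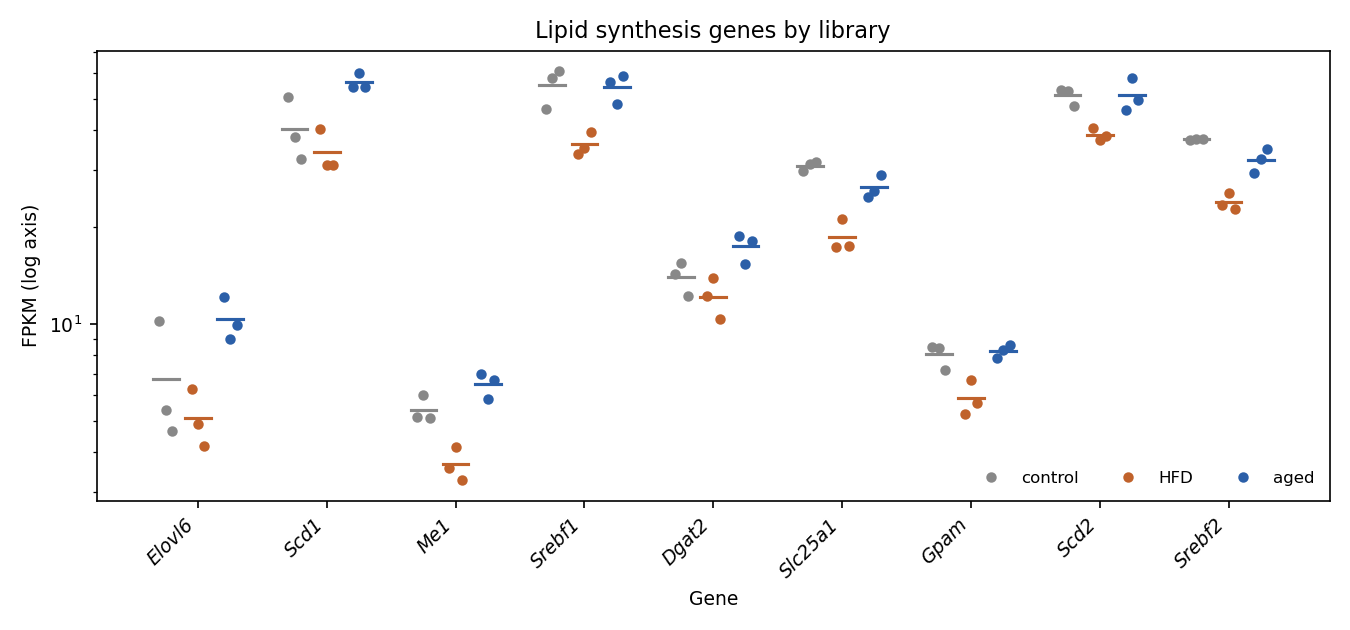
FPKM (log axis) of the 8 fatty acid synthesis genes called higher and of Srebf2, also called, in each of the 9 libraries, with a bar at each group's mean (n = 3). The 3 aged libraries lie above the 3 HFD libraries for all 9 genes, from Elovl6 with a log2 change of 0.90 to Scd2 with 0.39. Nearly all called genes lie apart in this way. Over the whole lists the groups did not overlap for 10 of 15 fatty acid synthesis genes and 11 of 26 sterol genes.

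Glycolysis genes moved in both directions, with 3 of 25 tested rows higher and 4 lower and a median log2 difference of -0.07. The name Aldoa stands on 2 rows of the table and both were counted. The widest log2 change of the whole comparison was that of Eno1b, an enolase gene whose sequence is close to that of Eno1. It was listed at 0.105, 0.0197 and 3.38 FPKM in HFD, with replicate 3 apart from the others, and at 11.2, 6.86 and 11.5 FPKM in aged (log2 change 2.64 ± 0.43, adjusted p = 0.005). Eno1 was at 61.2, 65.7 and 66.6 FPKM in HFD and 42, 44.3 and 44.1 FPKM in aged, and it fell (log2 change -0.56 ± 0.08, adjusted p = 0.0023). Of the transcript's 50-base stretches, 84.5% (Eno1b) and 72.2% (Eno1) also occur in other annotated genes, so reads may be split between the genes and both values are uncertain. The sum of both genes was 61.3, 65.7 and 69.9 FPKM in HFD and 53.1, 51.2 and 55.6 FPKM in aged, so it too was lower in each aged library. Aldoc, an aldolase, and Pfkm, a phosphofructokinase, rose by 0.66 and 0.39. Slc16a1, the lactate transporter MCT1, and the enzymes Pgam1 and Pgk1 fell, with log2 changes of -0.35, -0.40 and -0.32. Of the 50-base stretches of Pgam1 and Pgk1, 41.5% and 68.0% also occur in other genes, so these values are less certain too. Leaving out a library ended these 5 calls: Slc16a1 without HFD replicate 3, Aldoc without that or aged replicate 1, Pfkm without HFD replicates 2 or 3 or aged replicates 1 or 2, Pgam1 without HFD replicate 1 or aged replicates 1 or 3, and Pgk1 without any HFD library or aged replicates 1 or 3 (adjusted p from 0.051 to 0.11). Fbp2, the fructose bisphosphatase isoform of muscle, was at 8.56, 6.3 and 7.64 FPKM in HFD and 8.87, 6.34 and 6.15 FPKM in aged, against 0.278 ± 0.298 FPKM in control, and did not differ beyond its spread between HFD and aged (log2 difference -0.07 ± 0.17, adjusted p = 0.83). Of 75 respiratory chain genes 1 rose (Ndufa6), of 82 cytosolic ribosomal protein genes 1 fell (Rpl7l1) and of 77 mitochondrial ones none was called, and neither of the 2 calls was steady.

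Matrix and keratin genes were called in both directions. Of 24 tested matricellular and proteoglycan genes 4 rose (Thbs1, Ccn1, Ccn2 and Papln) and 4 fell (Tnc, Postn, Gpc3 and Cd44), and of 9 stress and minor keratins 2 rose (Krt79 and Krt77) and 2 fell (Krt6a and Krt6b). Only Thbs1, Tnc and Krt6a among these 12 were steady. The 4 matrix genes higher became 2 without HFD replicate 1, 1 without HFD replicate 2 and 2 without aged replicate 3, and the 4 lower became 2 without HFD replicate 3, aged replicate 2 or aged replicate 3. Of the keratins, none was called higher without HFD replicate 3 or aged replicate 1 and 1 without HFD replicate 1, and 1 was called lower when HFD replicate 2, HFD replicate 3 or any 1 aged or control library was left out. Tnc, tenascin C, an anti-adhesive glycoprotein of wounded skin (chr4:63959785-64047015), was at 7.3, 11.4 and 11.5 FPKM in HFD and 2.57, 2.5 and 3.8 FPKM in aged (log2 change -1.48 ± 0.17, adjusted p = 0.0017). Krt6a, a keratin of activated and palmoplantar epidermis (chr15:101689910-101694307), was at 167, 315 and 269 FPKM in HFD and 82.5, 94.1 and 97.6 FPKM in aged (log2 change -1.4 ± 0.19, adjusted p = 0.0023). The groups did not overlap for either gene, and HFD was the more variable group. Krt6a, Krt6b and Krt16 share 45.5%, 50.1% and 37.6% of their 50-base stretches with other genes, so their levels are less certain. Krt16, the partner keratin of Krt6a, was at 31.2, 73.3 and 44.2 FPKM in HFD and 24.2, 31.3 and 23.3 FPKM in aged and was not called (log2 difference -0.82 ± 0.25, adjusted p = 0.066). Postn, periostin, fell from 101, 132 and 82.2 to 50.4, 62.5 and 51 FPKM (log2 change -0.91 ± 0.18, adjusted p = 0.013), a call lost without the filter on low values (0.059). Acta2, smooth muscle actin (chr19:34241090-34255590), was at 11.1, 15.2 and 13.2 FPKM in HFD and 2.94, 4.13 and 5.03 FPKM in aged (log2 change -1.5 ± 0.20, adjusted p = 0.0023). Ehf, an epithelial ETS factor (chr2:103263433-103303278), was at 7.96, 11.1 and 8.99 FPKM in HFD and 1.23, 3.57 and 2.97 FPKM in aged, against 1.8 to 3.03 FPKM in control (log2 change -1.58 ± 0.23, adjusted p = 0.0032). HFD was the high group for Ehf and Acta2, and the control and aged libraries overlapped.

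Within the list of YAP and mechanical response genes, 4 of 31 rose and 8 fell. All 8 that fell encode actin or proteins that bind it. Vcl, vinculin, which links integrins to actin, was at 23.4, 24.3 and 26.7 FPKM in HFD and 17.2, 17.6 and 17 FPKM in aged (log2 change -0.50 ± 0.07, adjusted p = 0.0023). The log2 change was -0.48 ± 0.08 for the actin crosslinker Actn1, -0.47 ± 0.08 for the actin-binding Tagln2 and -0.41 ± 0.08 for the tropomyosin Tpm2, and these were steady, as were Vcl and Acta2. Cnn2, Tpm1 and Tpm4 also fell, with log2 changes of -0.42, -0.32 and -0.37, and each of these calls was lost when any HFD library was left out (adjusted p from 0.052 to 0.12). The list's count of 8 lower was 5 without HFD replicate 2 and 5 without HFD replicate 3, and its 4 higher became 2 without HFD replicate 2. Among the 4 that rose, Axl, a receptor tyrosine kinase, was at 21.4, 21.6 and 23.2 FPKM in HFD and 34.5, 31.3 and 36.6 FPKM in aged (log2 change 0.61 ± 0.08, adjusted p = 0.0019), and the angiomotin Amotl2 rose by 0.59 ± 0.09. Ccn1 and Ccn2, matricellular proteins that are commonly read as YAP targets, rose by 0.96 and 0.85. Ccn1 lost its call without HFD replicate 2 (0.056) and Ccn2 without HFD replicates 1, 2 or 3 or aged replicates 2 or 3 (adjusted p from 0.051 to 0.11). Thbs1, thrombospondin 1, was at 16.6, 20 and 19.1 FPKM in HFD and 36.9, 30 and 33.4 FPKM in aged (log2 change 0.82 ± 0.13, adjusted p = 0.004). Piezo1, the mechanosensitive channel, was at 3.71, 4.6 and 5.14 FPKM in HFD and 3.76, 4.68 and 4.68 FPKM in aged, so the groups overlapped (log2 difference -0.03 ± 0.12, adjusted p = 0.92).

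In the hemidesmosome and basement membrane list 3 of 22 genes fell and none rose (13.6% called, against 7.99% of all genes tested). Besides Itga6 these were the basement membrane collagen Col18a1 (log2 change -0.55 ± 0.11) and the proteoglycan Hspg2, perlecan (log2 change -0.50 ± 0.11). Col18a1 was not called without HFD replicate 3 (0.053), nor Hspg2 without HFD replicates 2 or 3 or aged replicates 1 or 2 (0.051 to 0.083). Itgb4, the partner of integrin alpha 6, was at 155 ± 21.2 FPKM in HFD and 154 ± 22.2 FPKM in aged (mean ± SD, n = 3), and Col17a1 had a log2 difference of -0.03. Neither was called. Among 32 junction genes 3 fell (Dsc2, Gjb6 and Cdh13) and none rose, so 9.4% were called, near the 7.99% of all genes tested. The 3 became 1 without HFD replicates 1 or 2 or aged replicates 1 or 3. The desmocollin Dsc2 was the steady one, and it was at 5.66, 7.98 and 8.61 FPKM in HFD and 3.6, 4.6 and 3.72 FPKM in aged (log2 change -0.75 ± 0.14, adjusted p = 0.0097).

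Differentiation genes as a list were not called in the aged direction. Of 36 tested, 1 fell and none rose, although 28 of the 36 had a difference above 0 and the median was 0.19. The list's median deviation from the mean over all libraries, on the log2 scale, was -0.06, 0.27 and -0.57 in HFD. In aged it was 0.18, 0.20 and 0.07. The HFD libraries thus lay both above and below all aged ones, and the lean was not shared by all of them. Under the alternative settings the list's median difference lay between 0.025 and 0.39. The gene that fell was Tgm3, an epidermal transglutaminase, at 292, 338 and 325 FPKM in HFD and 209, 217 and 251 FPKM in aged (log2 change -0.50 ± 0.09, adjusted p = 0.0097). Krt1, Krt10 and Ivl, the classic suprabasal markers, had log2 differences of 0.32, 0.32 and 0.52 with adjusted p of 0.17, 0.26 and 0.24. Krt1 was at 1609, 1613 and 1403 FPKM in HFD and 2318, 1863 and 1627 FPKM in aged, with aged replicate 3 just above the highest HFD library. Krt79, a keratin of the follicle opening and sebaceous duct (chr15:101929332-101940324), was at 40, 41.1 and 23 FPKM in HFD and 121, 86.8 and 94.4 FPKM in aged (log2 change 1.54 ± 0.35, adjusted p = 0.024), a call lost without HFD replicate 3 (0.087) or aged replicate 1 (0.08).

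**Figure D5:**
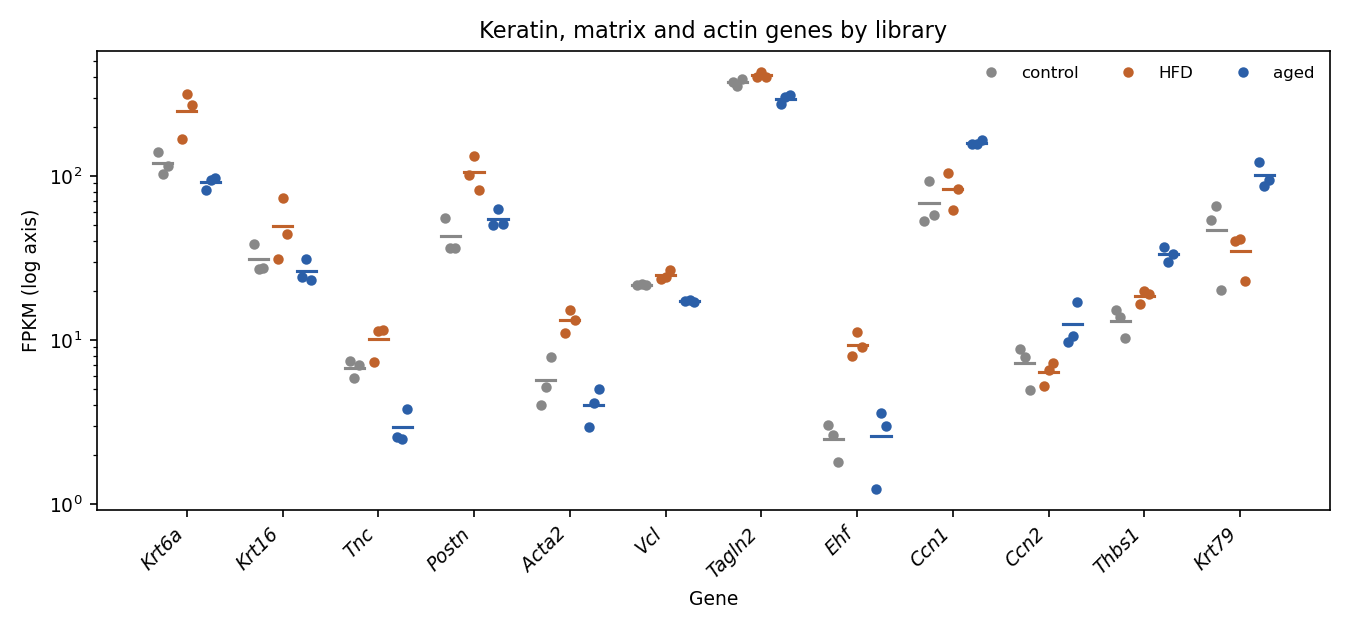
FPKM (log axis) of 12 keratin, matrix, actin and related genes in each of the 9 libraries, with a bar at each group's mean (n = 3). Krt6a, Tnc, Postn, Acta2, Vcl, Tagln2 and Ehf are lower in all 3 aged than in all 3 HFD libraries, and Ccn1, Ccn2, Thbs1 and Krt79 are higher. Krt16, the only gene shown that was not called, overlaps.

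Of 12 EGF receptor family genes, ligands and regulators 3 rose and none fell (25% called, against 7.99% of all genes tested), and all 3 were steady. The list as a whole did not lean either way, with a median log2 difference of 0.01 and 6 members above and 6 below 0. Hbegf, the heparin-binding EGF ligand, was at 2.18, 2.4 and 3.57 FPKM in HFD and 6.82, 6.88 and 9.2 FPKM in aged (log2 change 1.22 ± 0.19, adjusted p = 0.0039). Epgn, epigen, another ligand of the same receptor, was at 2.76, 1.8 and 2.81 FPKM in HFD and 4.78, 5.42 and 4.01 FPKM in aged (log2 change 0.74 ± 0.14, adjusted p = 0.0092). Errfi1, a feedback inhibitor of the receptor, was at 8.53, 9.62 and 12 FPKM in HFD and 16.1, 17.5 and 21.1 FPKM in aged (log2 change 0.80 ± 0.13, adjusted p = 0.0047). The groups did not overlap for the 2 ligands or for the inhibitor.

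Of 17 insulin and IGF signalling genes 1 rose and 2 fell (17.6% called, against 7.99% of all genes tested), all 3 of them IGF-binding proteins. Igfbp4 was at 14.4, 14.9 and 15 FPKM in HFD and 22.8, 21 and 27.9 FPKM in aged (log2 change 0.65 ± 0.11, adjusted p = 0.0051). Igfbp7 went the other way, from 95.7, 91.8 and 115 to 66, 63.4 and 72 FPKM (log2 change -0.58 ± 0.11, adjusted p = 0.0086), and Igfbp2 fell too (log2 change -0.54), a call lost without HFD replicates 2 or 3 or aged replicate 1 (adjusted p from 0.074 to 0.085). Efnb2, the membrane-bound ligand of Eph receptors, rose by 0.57 ± 0.10 (adjusted p = 0.0071). Id1, an inhibitor of bHLH factors and a BMP target, was at 19.4, 23.2 and 25.5 FPKM in HFD and 36, 30.8 and 39.6 FPKM in aged (log2 change 0.62 ± 0.12, adjusted p = 0.0097). The metalloprotease Adamts1 rose by 0.91 ± 0.15 and Adam8 fell (log2 change -0.46 ± 0.09). Klf16 was the steady call among 4 Kruppel-like factors that rose, of 12 tested (log2 change 0.62 ± 0.08, adjusted p = 0.0023). The 4 became 1 without HFD replicates 1 or 2 or aged replicate 3 and 2 without aged replicates 1 or 2. In the Wnt list 1 of 29 genes rose (Axin2) and 1 fell (Wnt10b), in the Notch list 1 of 13 rose (Hes1), and in the TGF-beta and BMP list 3 of 28 rose (Id1, Id4 and Ltbp3). The shares called in these lists were 6.9%, 7.7% and 10.7%, near the 7.99% of all genes tested. Of these 6 calls, that of Id1 alone was steady, and the 3 of its list became 1 when any 1 HFD library, aged replicate 1 or aged replicate 3 was left out.

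Stress and immune genes gave few steady calls. Among cytosolic chaperones 4 of 23 rose and 2 fell: Dnajb1, a co-chaperone of HSP70, rose by 0.44 ± 0.08 (adjusted p = 0.0084) while Hsph1, an exchange factor for HSP70, fell (log2 change -0.50 ± 0.09, adjusted p = 0.0065). The 4 that rose became 1 when any 1 HFD library or aged replicate 1 was left out and 2 without aged replicates 2 or 3, and the 2 that fell became 4 without aged replicate 2 and 1 without each of the other HFD and aged libraries. In the unfolded protein and integrated stress response list 4 of 26 rows fell (Mthfd2, Atf5, Asns and Pdia4) and none rose (15.4% called, against 7.99% of all genes tested). None of the 4 was steady: 1 was left without HFD replicate 1, 0 without HFD replicate 2 and 2 without HFD replicate 3 or aged replicate 2. Of 23 tested inflammation rows 3 rose (Tnfaip3, Defb1 and Il1r2) and 1 fell (S100a8). Without HFD replicate 3 the 3 became 1. Tnfaip3, the ubiquitin-editing brake on NF-kB, was at 1.51, 1.48 and 1.65 FPKM in HFD and 2.82, 4.45 and 4.97 FPKM in aged (log2 change 0.97 ± 0.15, adjusted p = 0.0033). S100a8, an alarmin subunit, was at 2.35, 7.23 and 13.8 FPKM in HFD, spread widely, and 1.65, 1.45 and 0.658 FPKM in aged (log2 change -1.75 ± 0.40, adjusted p = 0.024). Its call was lost without HFD replicates 2 or 3 or aged replicate 3 (adjusted p from 0.062 to 0.075), and its partner S100a9 was not called (log2 difference -1.69 ± 0.60, adjusted p = 0.11). None of the 11 tested interferon genes and none of the 34 proteasome subunits was called. The interferon list had 31 rows, and 17 of them were below 1 FPKM in all 6 libraries. Isg20 and Ly6e, which are outside that list, were called and are given under other observations.

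Markers of other cell types were mostly absent. No marker of melanocytes, Merkel cells, fat or erythroid cells reached the mean of 1 FPKM. Endothelial and mural markers Cdh5, Kdr, Rgs5 and Pdgfrb were listed at 0 in all 6 libraries, as were the fibroblast markers Lum and Dpt. The 12 endothelial and mural markers summed to 28.7 to 38.8 FPKM in HFD and 13.5 to 21.9 FPKM in aged, nearly all of it from Cspg4 and Acta2. Of the sweat gland list, Krt8, Krt18 and Krt19, the defining keratins of the secretory coil, were below 1 FPKM in all 6 libraries, and Acta2 and Ehf carried 2 of the list's 3 calls, with Foxc1, which rose and was not steady, the third. Its 15 markers summed to 44.1 to 53.5 FPKM in HFD and 29.8 to 33.6 FPKM in aged. The 14 fibroblast markers summed to 30.9 to 40.2 FPKM in HFD and 17.7 to 28.2 FPKM in aged, most of it from Col6a1, which fell (log2 change -0.77 ± 0.17, adjusted p = 0.022), while Dcn, decorin, rose by 0.67 ± 0.16 (adjusted p = 0.025). Col6a1 lost its call without HFD replicates 2 or 3, and Dcn without HFD replicate 3 or aged replicates 1 or 2. Of 2 tested Schwann cell markers Pmp22 fell (log2 change -0.75 ± 0.11, adjusted p = 0.0033), while Mbp was not called (log2 difference -0.02). The 7 markers of the list summed to 40.1 to 42 FPKM in HFD and 24.8 to 32.1 FPKM in aged. Of these 7, 5 were below 1 FPKM in all 6 libraries, so the sum is no broad Schwann cell signal. None of the tested Langerhans and myeloid (5), T cell (1) and muscle (2) markers was called. The part of other cell types in the differences above was not tested.

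Hair follicle and sebaceous markers leaned the other way, with 5 of 12 tested members higher in aged and none lower (median 0.41). The 5 became 3 without HFD replicate 3 or aged replicate 1 and 2 with the filter raised to 5 FPKM, and 1 member was called lower without aged replicate 3. The listed markers summed to 226 to 285 FPKM in HFD and 322 to 353 FPKM in aged. Besides Krt79 and Foxc1 these were Mgst1, Krt28 and Cidea. Mgst1, a microsomal glutathione transferase, was at 25.2, 24.8 and 23.5 FPKM in HFD and 43, 41.5 and 41.4 FPKM in aged (log2 change 0.75 ± 0.11, adjusted p = 0.0033). Cidea, a lipid droplet protein abundant in sebaceous cells, was at 0.328, 0.331 and 0.417 FPKM in HFD and 4.0, 2.6 and 2.14 FPKM in aged (log2 change 1.5 ± 0.27, adjusted p = 0.0078). Awat1, Scd3 and Mc5r, which are more restricted to sebaceous glands, and Krt71 and Krt35 of the hair were below 1 FPKM in all 6 libraries, and Shh was at 0. Lipid synthesis genes moved in the same direction as these markers, and the part of such cells in that result was not tested.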

How the data were processed

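The series holds 9 bulk RNA-seq libraries of sorted basal cells, 3 per group as the labels give them. The authors deposited 1 table of FPKM with 22399 rows and 1 column per library. Per the submitters' processing notes, STAR 2.6.0c, cutadapt, DESeq2 1.30.0, HTSeq 0.11.2 and the build mm10 were used, with no role given, and gene lengths and strand settings are not given in the sources used here. Whole reads were recovered from low values for 97.5% to 98.3% of values up to 30 reads (tolerance 0.02), which gave the depths. Values were analysed as log2(FPKM + 1) over 10367 genes that averaged 1 FPKM or more over the libraries, in limma 3.58.1 (R 4.3.3, trended empirical Bayes). The model had 1 mean per group over all 9 libraries, the contrast was aged minus HFD (two-sided), and p-values were Benjamini-Hochberg adjusted over all genes tested. On simulated data with known changes in a small part of the genes, tested in 10 draws over the same 10367 genes for this comparison, 65.5% of genes changed by 0.5 (log2), 96.3% by 1 and 100% by 2 were recovered. The draws gave 93 false calls in all. Noise was drawn independently for each gene, so these rates do not cover effects that genes of a library share. Alternatives changed the pseudocount, filter, scaling, weights, GC correction, replicate block and libraries. Gene positions come from GENCODE M21 (22362 identifiers matched). Named genes were the 15 largest changes in each direction among called genes without overlap, the 5 lowest p in each direction, up to 4 members of each list by p, and 14 fixed genes, and predicted genes were left out. Further genes named to complete a list or pathway, such as Fos, Ccnb1, Elovl6, Tagln2, Pmaip1, Gpha2 and Cyp2b10, and the printed promoters, were chosen after their values were seen. Members and lists were chosen with earlier results of these data known. A gene name on several rows was counted once per row. Single-cell libraries of the series were not used here. Some genes that the naming rule covers are not reported here.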

Additional observations from a re-analysis of the deposited data

How the results depend on the processing

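The direction held for each named gene that was called, and 84 of these 182 kept their call, under every alternative that tested them. Named genes that were not called and whose difference lay near 0, such as Fbp2, Piezo1, Itgb4 and Col17a1, changed sign under some of them. Without the filter on low values 541 genes were called, 225 of them higher. Leaving out 1 library gave 381 to 775 called genes, 168 to 355 higher and 200 to 432 lower, with 475 called without HFD replicate 1, 381 without HFD replicate 2, 391 without HFD replicate 3 and 448 without aged replicate 1. The labels number the replicates alike. Deviations of aged and HFD libraries with the same number correlated at 0.10, 0.00 and 0.21, and those with unlike numbers at -0.29 to 0.22. These values do not settle whether the numbers mark pairs, and the main fit did not use the numbers. With the number as a replicate block 987 genes were called, 788 of them among the 828, and among the named genes 5 calls were lost and 25 gained. Depth limits genes near the filter of 1 FPKM most, and 3 libraries per group limit the precision of all.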

Other observations

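Several further genes were called. C1s2, a complement serine protease gene, was at 0.856, 2.2 and 1.09 FPKM in HFD and 4.79, 3.65 and 3.34 FPKM in aged (log2 change 1.08 ± 0.18, limma adjusted p = 0.0057). C1s2 shares 26.9% of its 50-base stretches with other genes, so its level is less certain. Ano9, an anoctamin membrane protein, was at 10.5, 8.25 and 6.5 FPKM in HFD and 18.3, 20.8 and 15.4 FPKM in aged (log2 change 1.03 ± 0.16, adjusted p = 0.004). Arsi, an arylsulfatase, was at 6.57, 7.67 and 9.38 FPKM in HFD and 3.9, 2.85 and 2.7 FPKM in aged (log2 change -1.1 ± 0.15, adjusted p = 0.0023). The groups did not overlap for these 3 genes, as for nearly all called genes.

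Tppp3, a tubulin-binding protein, was at 149, 206 and 204 FPKM in HFD and 61.1, 74.4 and 126 FPKM in aged (log2 change -1.14 ± 0.21, adjusted p = 0.0092), and Isg20, an exonuclease, was at 1.54, 2.0 and 2.06 FPKM in HFD and 0.697, 0.102 and 0.666 FPKM in aged (log2 change -0.97 ± 0.17, adjusted p = 0.0078). The membrane protein Ly6e rose by 0.46 ± 0.08 (adjusted p = 0.0076). Ptx3, a secreted pentraxin, was listed at 0 in all 3 HFD libraries and in 2 aged libraries, and at 0.0365 FPKM in aged replicate 3.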
